A study of Mus musculus with 27 samples.

Results

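The genes described here are Ciita, Cd74, H2-Aa, H2-Ab1, H2-Eb1, H2-DMa and H2-DMb1, the class II transactivator and 6 chains of the MHC class II pathway. They were picked by gene symbol from a table of 45070 genes and make up 7 of its rows. All 7 were among the 13901 genes tested, which had to reach a normalised read count of 10 in 3 or more of the 27 samples. H2-Aa and H2-Ab1 reached 10 in 0 of 3 untreated samples and H2-Eb1 in 1 of 3, so these 3 chains were tested because of their stimulated samples, while H2-DMb1 reached 10 in 1 of 12 LPS samples. The study examined kinase inhibitors in macrophage activation, and these samples are its time courses without inhibitor. The cells were bone marrow-derived macrophages (BMDMs), grown in culture from the marrow of wild type C57/BL6 male mice aged 6 to 8 weeks. Every sample, the untreated ones included, had received the vehicle DMSO for 1 h. The groups were untreated cells, cells given lipopolysaccharide (LPS), the endotoxin of Gram-negative bacteria, and cells given interleukin-4 (IL-4), a cytokine of type 2 immunity. Either stimulus was used at 10 ng/ml, for 0.5 h, 1 h, 2 h or 4 h, with 3 replicates in each of the 9 groups. Chromatin-associated RNA was sequenced, which is rich in transcripts still being made, so the values follow ongoing transcription more closely than the mature message.

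MHC class II molecules show peptides from ingested proteins to CD4+ T cells and are made mainly by dendritic cells, B cells and macrophages. Ciita is a co-activator without DNA binding of its own that docks on a protein complex of RFX, CREB and NF-Y factors assembled at class II promoters, and its level usually sets the level of class II transcription. H2-Aa, H2-Ab1 and H2-Eb1 encode chains of the peptide-binding molecules I-A and I-E, Cd74 encodes the invariant chain that escorts them and blocks their groove, and H2-DMa and H2-DMb1 encode DM, which removes the last fragment of the invariant chain and helps peptides to bind. Macrophages raise these genes strongly after interferon-gamma, which was not used here.

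All 7 genes are protein-coding, and their coordinates follow the table's own annotation (GRCm38.p6). Ciita lies on chromosome 16 (10480072 to 10527640, forward strand) and shares part of its span with LOC115488669 on the other strand, which read 8 to 35 normalised read counts per sample. Cd74 is on chromosome 18 (60803849 to 60812652, forward strand) and contains Mir5107 on the same strand, with 0 to 19. The other 5 genes lie within 193.843 kb of chromosome 17, the MHC. H2-DMa spans 34122832 to 34139101, H2-DMb1 34153191 to 34160229, H2-Ab1 34263227 to 34269418 and H2-Eb1 34305867 to 34316674 on the forward strand, and H2-Aa spans 34282744 to 34287823 on the reverse strand. The count of a gene covers all of its promoters together. GENCODE M21 lists 8 transcripts of Ciita with starts between 10480059 and 10489783, and the table gives them 1 row.

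The summed normalised read counts were 3571492 to 4058199 in the LPS samples and 2469768 to 2790981 in the untreated and IL-4 samples. In the values as deposited, the median tested gene differed from untreated by −0.24, −0.30, −0.29 and −0.26 on the log2 scale at the 4 LPS times, and by −0.02 to 0.02 at the IL-4 times. Rescaled to equal totals, the LPS medians were −0.73, −0.86, −0.91 and −0.84, so a change after LPS is best read against these medians. Of 8 macrophage markers, each was above 0 in all 27 samples, with Adgre1 at 4051 to 12142 and Csf1r at 427 to 3505. Markers of B cells, dendritic cells, T cells and neutrophils were at low values, and those detected most were Ebf1 at 3 to 59, Zbtb46 at 0 to 90, Clec9a at 0 to 42, Lck at 0 to 31 and Ngp at 3 to 57. Bulk RNA cannot tell fewer cells of a type from less RNA in each cell.

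Levels between genes were compared per length. Per kb of gene span, the mean of the 3 untreated samples was 7.54 normalised read counts for H2-DMa, 3.71 for Cd74, 2.13 for H2-DMb1, 1.12 for H2-Aa, 0.969 for H2-Ab1, 0.918 for Ciita and 0.740 for H2-Eb1. After 0.5 h of LPS the order on the same scale was led by Cd74 with 42.9, followed by H2-DMa with 7.33, H2-Ab1 with 6.73, H2-Aa with 6.50 and H2-Eb1 with 4.78, and H2-DMb1 with 1.23 and Ciita with 1.09 came last. Cd74 thus moved from below H2-DMa to above it, and the classical chains from below H2-DMb1 to above it. Both moves were also seen per kb of cDNA, but the place of Ciita depended on the length used. Per kb of cDNA, untreated Ciita at 7.28 was above H2-Aa at 5.02, H2-Ab1 at 5.03 and H2-Eb1 at 4.79. After 0.5 h of LPS it was at 8.62 on that scale, above H2-DMb1 at 6.75.

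**Figure D1:**
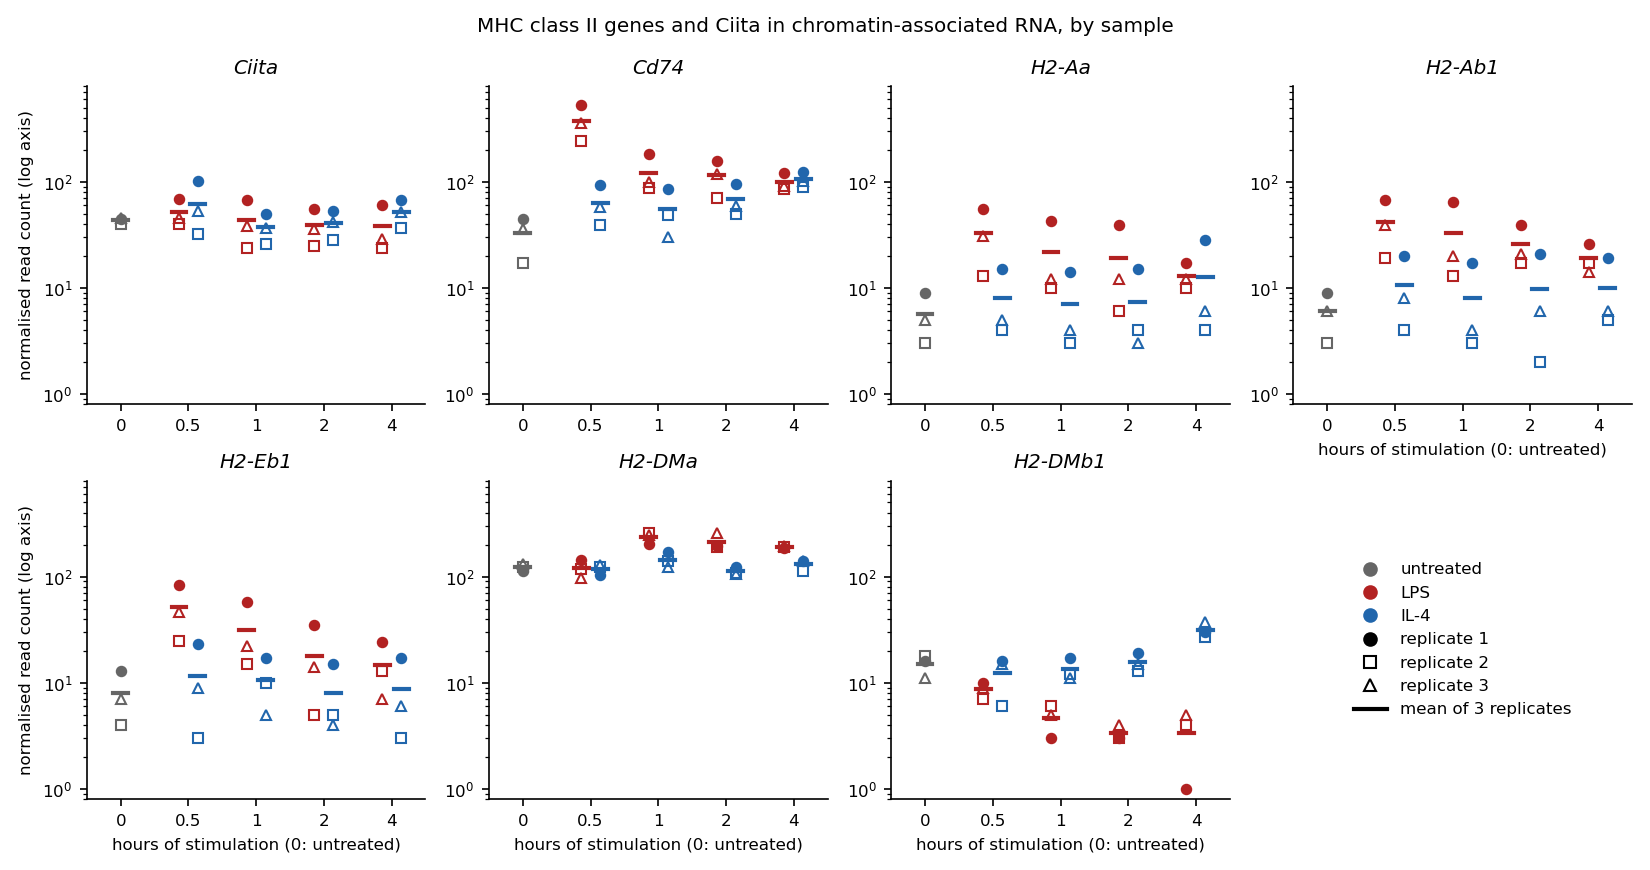
Normalised read counts of the 7 genes in each sample (log axis) against hours of stimulation, with untreated cells at 0, LPS in red, IL-4 in blue, a marker per replicate and a line at the mean of 3 replicates. Cd74 and the H2-Aa, H2-Ab1 and H2-Eb1 chains are highest after 0.5 h of LPS, H2-DMb1 is lowest under LPS and highest after 4 h of IL-4, and Ciita stays between 24 and 101 throughout.

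Ciita, the regulator of the set, gave no call after either stimulus. Its normalised read counts were 45, 40 and 46 in untreated replicates 1, 2 and 3. Under LPS they were 69, 40 and 46 after 0.5 h, then 68, 24 and 38 after 1 h, then 56, 25 and 36 after 2 h, and last 61, 24 and 29 after 4 h. All 4 LPS groups overlapped the untreated samples, with replicate 1 above them and replicates 2 and 3 at or below their own untreated values at every time. The log2 fold change was 0.20, −0.13, −0.23 and −0.31 in order of time, each with an SE of 0.39, and limma's F test over the LPS course gave an adjusted p of 0.728. The value at 4 h was −0.68 without replicate 1 (limma adjusted p = 0.0385) and −0.90 with equal totals (adjusted p = 0.0455).

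Under IL-4 Ciita read 101, 32 and 53 after 0.5 h, then 50, 26 and 37 after 1 h, then 53, 28 and 42 after 2 h, and last 68, 37 and 52 after 4 h. Again every group overlapped the untreated samples. The widest of them was 0.5 h, where replicate 1 was 2.24 times and replicate 2 was 0.800 times the untreated sample of the same number. The largest log2 fold change was 0.35 at 0.5 h (SE 0.37, limma adjusted p = 0.621), and limma's F test of all IL-4 times gave an adjusted p of 0.611.

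Cd74, the invariant chain, showed the largest change of the 7 genes. Untreated samples held 45, 17 and 36 normalised read counts. With LPS it held 530, 241 and 362 after 0.5 h, then 181, 87 and 99 after 1 h, then 156, 71 and 119 after 2 h, and last 122, 86 and 91 after 4 h. All 12 LPS samples were above the highest untreated sample, and all 3 samples at 0.5 h were above the highest sample of every other group. Taken by replicate number, the ratio to untreated at 0.5 h was 11.8, 14.2 and 10.1.

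The mean of Cd74 went from 32.7 ± 14.3 to 378 ± 145 (SD, n = 3), 11.6 times the untreated mean. On the log2 scale it rose by 3.52 at 0.5 h (SE 0.38, limma adjusted p = 2.04e-06), 1.90 at 1 h (adjusted p = 0.000508), 1.82 at 2 h (adjusted p = 0.00066) and 1.67 at 4 h (adjusted p = 0.0014). These 4 calls held under all 13 alternatives run for each of them. Between 0.5 and 1 h of LPS it fell by 1.62 on the log2 scale (limma adjusted p = 0.00257, or 0.0708 without replicate 3).

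IL-4 gave Cd74 93, 39 and 58 normalised read counts after 0.5 h, then 86, 49 and 30 after 1 h, then 96, 50 and 59 after 2 h, and last 125, 89 and 102 after 4 h. The samples at 2 and 4 h did not overlap the untreated ones, whereas those at 0.5 and 1 h did. The log2 fold change was 0.95 at 0.5 h (limma adjusted p = 0.163), 0.71 at 1 h (adjusted p = 0.287) and 1.09 at 2 h (adjusted p = 0.0754), and at 4 h it rose by 1.75 (SE 0.43, adjusted p = 0.00777). With the replicate number as a block, which pairs the samples of the IL-4 course, the 3 earlier times also passed, with limma adjusted p-values of 0.0105, 0.0400 and 0.00264. Without replicate 1 the value at 2 h was 1.10 (adjusted p = 0.0340). The call at 4 h was lost without replicate 2 (1.47, adjusted p = 0.0954), without replicate 3 (1.89, adjusted p = 0.0827) and with replicates 2 and 3 averaged (1.63, adjusted p = 0.0660). By group mean, LPS 0.5 h stood first, LPS 1 h, LPS 2 h, IL-4 4 h and LPS 4 h followed at 122, 115, 105 and 99.7, and these 4 overlapped one another.

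The classical chains H2-Aa, H2-Ab1 and H2-Eb1 all rose within 0.5 h of LPS, each from single or low double digits. H2-Aa, the alpha chain of I-A, read 9, 3 and 5 in untreated samples and 55, 13 and 31 after 0.5 h of LPS. It then read 43, 10 and 12 after 1 h, then 39, 6 and 12 after 2 h, and last 17, 10 and 12 after 4 h. The LPS samples lay above the untreated ones at 0.5, 1 and 4 h and overlapped them at 2 h. The log2 rise was 2.24 at 0.5 h (SE 0.66, limma adjusted p = 0.0096) and 1.57 at 1 h (adjusted p = 0.0483), and the values at 2 and 4 h were 1.31 (adjusted p = 0.0925) and 1.14 (adjusted p = 0.144). Its F test over the LPS course missed the threshold (adjusted p = 0.0564).

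H2-Ab1, the beta chain of I-A, read 9, 3 and 6 in untreated samples. Under LPS it read 67, 19 and 39 after 0.5 h, then 65, 13 and 20 after 1 h, then 39, 17 and 21 after 2 h, and last 26, 17 and 14 after 4 h. All 12 LPS samples were above all untreated samples. On the log2 scale it rose by 2.53 at 0.5 h (SE 0.56, limma adjusted p = 0.00135), 2.04 at 1 h (adjusted p = 0.00506), 1.94 at 2 h (adjusted p = 0.00666) and 1.57 at 4 h (adjusted p = 0.0232). It had a call at each of the 4 LPS times.

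H2-Eb1, the beta chain of I-E, read 13, 4 and 7 in untreated samples. Under LPS it read 84, 25 and 46 after 0.5 h, then 58, 15 and 22 after 1 h, then 35, 5 and 14 after 2 h, and last 24, 13 and 7 after 4 h. Its samples at 0.5 and 1 h were above all untreated samples and those at 2 and 4 h overlapped them. By replicate number the ratio to untreated at 0.5 h was 6.46, 6.25 and 6.57, although the 3 values themselves differed by more than 3 times. The log2 rise was 2.51 at 0.5 h (SE 0.67, limma adjusted p = 0.00496) and 1.76 at 1 h (adjusted p = 0.0308), and 2 h and 4 h gave 0.84 (adjusted p = 0.276) and 0.77 (adjusted p = 0.326).

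The calls of these chains rested in part on single replicate numbers. At 0.5 h, leaving out replicate 3 gave 2.15 for H2-Aa (limma adjusted p = 0.113) and 2.49 for H2-Eb1 (adjusted p = 0.0670). At 1 h, H2-Aa gave 1.63 without replicate 2 (adjusted p = 0.0744) and 1.80 without replicate 3 (adjusted p = 0.156), and H2-Eb1 gave 1.80 (adjusted p = 0.0550) and 1.88 (adjusted p = 0.133). H2-Ab1 at 2 h gave 2.08 without replicate 3 (adjusted p = 0.0592), and at 4 h 1.27 without replicate 2 (adjusted p = 0.10) and 1.80 without replicate 3 (adjusted p = 0.0997). H2-Aa at 4 h passed without replicate 1 (1.29, adjusted p = 0.0220). Over all alternatives the call at 1 h was lost in 8 of 12 for H2-Aa and in 5 of 12 for H2-Eb1, and that of H2-Ab1 at 4 h in 7 of 12. With equal totals H2-Aa at 1 h gave 1.05 (adjusted p = 0.156), H2-Eb1 at 1 h 1.23 (adjusted p = 0.105) and H2-Ab1 at 4 h 1.02 (adjusted p = 0.106).

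Under IL-4 none of the 3 classical chains passed at any time. H2-Aa read 15, 4 and 5 after 0.5 h, then 14, 3 and 4 after 1 h, then 15, 4 and 3 after 2 h, and last 28, 4 and 6 after 4 h. H2-Ab1 read 20, 4 and 8, then 17, 3 and 4, then 21, 2 and 6, and last 19, 5 and 6. H2-Eb1 read 23, 3 and 9, then 17, 10 and 5, then 15, 5 and 4, and last 17, 3 and 6. In all 12 of these groups the samples overlapped the untreated ones, and replicate 1 was the high one. The largest log2 fold changes were 0.69 for H2-Aa at 4 h (SE 0.75, limma adjusted p = 0.560), 0.58 for H2-Ab1 at 0.5 h (SE 0.79, adjusted p = 0.705) and 0.36 for H2-Eb1 at 1 h (SE 0.72, adjusted p = 0.792), so the spread between replicates exceeded every one of them.

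The 2 DM chains took separate courses after LPS, H2-DMa with calls above untreated from 1 h and H2-DMb1 with calls below it. H2-DMa, the alpha chain of DM, read 112, 124 and 132 in untreated samples. Under LPS it read 142, 119 and 97 after 0.5 h, then 204, 258 and 246 after 1 h, then 193, 191 and 256 after 2 h, and last 185, 189 and 194 after 4 h. The samples at 0.5 h overlapped the untreated ones and all later LPS samples were above them. The log2 fold change was −0.05 at 0.5 h (limma adjusted p = 0.799), and it rose by 0.93 at 1 h (SE 0.16, adjusted p = 0.00011), 0.78 at 2 h (adjusted p = 0.000474) and 0.63 at 4 h (adjusted p = 0.00294). Between 0.5 and 1 h of LPS it rose by 0.99 (adjusted p = 0.000107), which held under all 13 alternatives.

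The rise of H2-DMa against untreated depended on the scaling. With equal totals it was −0.56 at 0.5 h (limma adjusted p = 0.00539), 0.36 at 1 h (adjusted p = 0.0532), 0.13 at 2 h (adjusted p = 0.470) and 0.02 at 4 h (adjusted p = 0.918), and without replicate 2 it was 0.64 at 4 h (adjusted p = 0.0504). IL-4 left it at 103, 124 and 128, then 170, 139 and 122, then 124, 108 and 105, and last 141, 112 and 141. These groups all overlapped the untreated samples, with the largest log2 fold change at 1 h (0.22, SE 0.14, limma adjusted p = 0.327).

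The start of H2-DMa lies 225 bp from the upstream end of Brd2, a gene on the other strand that encodes a bromodomain protein. Brd2 was looked at after its values were seen. It read 105, 150 and 128 in untreated samples, 272, 246 and 246 after 0.5 h of LPS, then 303, 325 and 344 after 1 h, 392, 408 and 370 after 2 h, and last 303, 285 and 265 after 4 h. Brd2 had thus risen at 0.5 h (log2 fold change 1.00, SE 0.13, limma adjusted p = 1.01e-05), when H2-DMa had not. GENCODE M21 lists 8 transcripts of H2-DMa, 2 of which start upstream at 34119541 and 34119588, within the region that Brd2 occupies. The table's own span of H2-DMa starts at 34122832, outside that region, and no other gene of the table overlaps it. Whether counting used strand is not given in the sources used here.

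H2-DMb1, the beta chain of DM, was the only one of the 7 genes that fell against untreated in the LPS course as deposited, and with equal totals H2-DMa at 0.5 h and Ciita at 4 h passed as lower too. It read 16, 18 and 11 in untreated samples, and under LPS 10, 7 and 9 after 0.5 h, then 3, 6 and 5 after 1 h, then 3, 3 and 4 after 2 h, and last 1, 4 and 5 after 4 h. All 12 LPS samples were below all untreated samples. The log2 fold change was −0.71 at 0.5 h (limma adjusted p = 0.147), and it fell by 1.51 at 1 h (SE 0.40, adjusted p = 0.00398), 1.87 at 2 h (adjusted p = 0.00075) and 2.00 at 4 h (adjusted p = 0.000427), each of which held under all 12 alternatives run. At these levels a log2 value with 1 added understates the fold, and the mean went from 15 ± 3.61 to 3.33 ± 2.08 (SD, n = 3) at 4 h. With equal totals the value at 0.5 h was −1.18 (adjusted p = 0.0141).

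IL-4 moved H2-DMb1 the other way, late. It read 16, 6 and 15 after 0.5 h, then 17, 12 and 11 after 1 h, then 19, 13 and 15 after 2 h, and last 30, 27 and 37 after 4 h. The samples at 4 h were above all untreated samples and the earlier groups overlapped them. At 4 h it rose by 1.03 on the log2 scale (SE 0.32, limma adjusted p = 0.0313), to 2.09 times the untreated mean. That call was lost in 5 of 12 alternatives, among them without replicate 1 (1.11, adjusted p = 0.0572) and without replicate 3 (0.71, adjusted p = 0.373). From 2 to 4 h of IL-4 the difference was 0.96 (adjusted p = 0.117), or 0.96 with adjusted p = 0.0462 with the replicate block.

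The neighbouring gene H2-DMb2, a second beta chain of DM, read 15, 15 and 14 after 4 h of IL-4 and 3 to 8 in untreated samples. It passed at 4 h of IL-4 with a log2 rise of 1.47 (SE 0.39, limma adjusted p = 0.0136), and reached 10 only in those 3 samples, through which it came to be tested. Under LPS it read 0 to 7 and its largest log2 fold change was −1.30 at 4 h (adjusted p = 0.0857). H2-DMb1 and H2-DMb2 are near copies, and multi-mapping reads were removed, so reads that match both could be missing from either count.

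Promoter sequence is shown for the members whose window holds a class II box, since genes with the same boxes moved in opposite directions after LPS. RefSeq windows (GRCm38.p6) were at hand for 4 of the 7 genes, H2-Aa, H2-Eb1, H2-DMa and H2-DMb1. The 250 bases before each start were searched on both strands for 3 short motifs, the core of the X box (AACTGATG), the Y box bound by NF-Y (TGATTGG) and the cyclic AMP response element (TGACGTCA), none of which overlap here. Capitals mark the matches, and each sequence runs 5′ to 3′ on its gene's strand.
H2-DMb1, chr17:34153079-34153149, forward strand: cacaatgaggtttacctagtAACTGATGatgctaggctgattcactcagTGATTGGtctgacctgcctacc
H2-Eb1, chr17:34305758-34305827, forward strand: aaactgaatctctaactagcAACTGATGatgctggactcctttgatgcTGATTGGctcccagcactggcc
H2-Aa, chr17:34287852-34287917, reverse strand: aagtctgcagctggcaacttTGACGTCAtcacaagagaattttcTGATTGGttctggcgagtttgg

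H2-DMb1 and H2-Eb1 carried both boxes in the same order, with the X box 92 and 89 bases and the Y box 63 and 61 bases before the start. H2-Eb1 rose by 2.51 after 0.5 h of LPS, while H2-DMb1 read −0.71 at that time and fell by 2.00 at 4 h. H2-Aa carried the Y box 50 bases and the cyclic AMP response element 74 bases before its start. Its window held no exact match to that X box core, and looser matches were not searched. H2-DMa held none of the 3 motifs in either of its 2 windows. GENCODE M21 also lists a principal protein-coding transcript of H2-DMa that starts at 34135628. The bases before that start were not searched. Of 32851 windows of this length, 222 (0.676%) held the X box core, 2375 (7.23%) the Y box and 508 (1.55%) the cyclic AMP response element, and 6 (0.0183%) held the X and Y boxes together on the gene's strand. Those 6 belong to H2-DMb1, H2-Eb1, H2-Eb2, BC051142, G3bp2 and Gm35444. A match is a description of the letters in the window, and binding was not measured here.

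Counted together, 4 of the 7 genes passed at 0.5 h of LPS, all higher, while 53.9% of all tested genes passed at that time. At 1 h 6 of 7 passed, 5 higher and 1 lower (63.8% of all tested genes). At 2 and 4 h 4 of 7 passed, 3 higher and 1 lower at either time (65.9% and 63.5% of all tested genes). In limma's F test of the whole LPS time course 5 of 7 passed, where 87.6% of all tested genes did. Apart from 1 h, the share of the 7 genes that passed in either direction was near or below that of the whole table. By direction, 19.6%, 24.8%, 26.9% and 25.9% of all tested genes passed as higher at the 4 times. The shares that passed as lower were 34.4%, 39.0%, 39.0% and 37.6%. H2-Aa, H2-Ab1 and H2-Eb1 were tested because of their stimulated samples, as given above. On the log2 scale, the fold changes of all 7 members had medians of 2.24, 1.57, 0.84 and 0.77 at the 4 times. Over the whole tested table these medians were −0.24 to −0.30. From 0.5 to 1 h of LPS 2 of 7 passed, Cd74 lower and H2-DMa higher (49.7% of all tested genes), while the later steps gave 0 of 7 (43.3% from 1 to 2 h, 22.9% from 2 to 4 h).

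After IL-4, 0 of the 7 genes passed in limma at 0.5 h (16.3% of all tested genes), 1 h (21.0%) and 2 h (27.6%), and 2 of 7, Cd74 and H2-DMb1, passed at 4 h (25.9%). Tested over all IL-4 times together, the same 2 passed, where 40.3% of all tested genes did. None passed between neighbouring IL-4 times, from 0.5 to 1 h (7.82% of all tested genes), from 1 to 2 h (9.40%) or from 2 to 4 h (5.48%). Cd74 passed at each of the 3 early times with the replicate block, as given above.

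**Figure D2:**
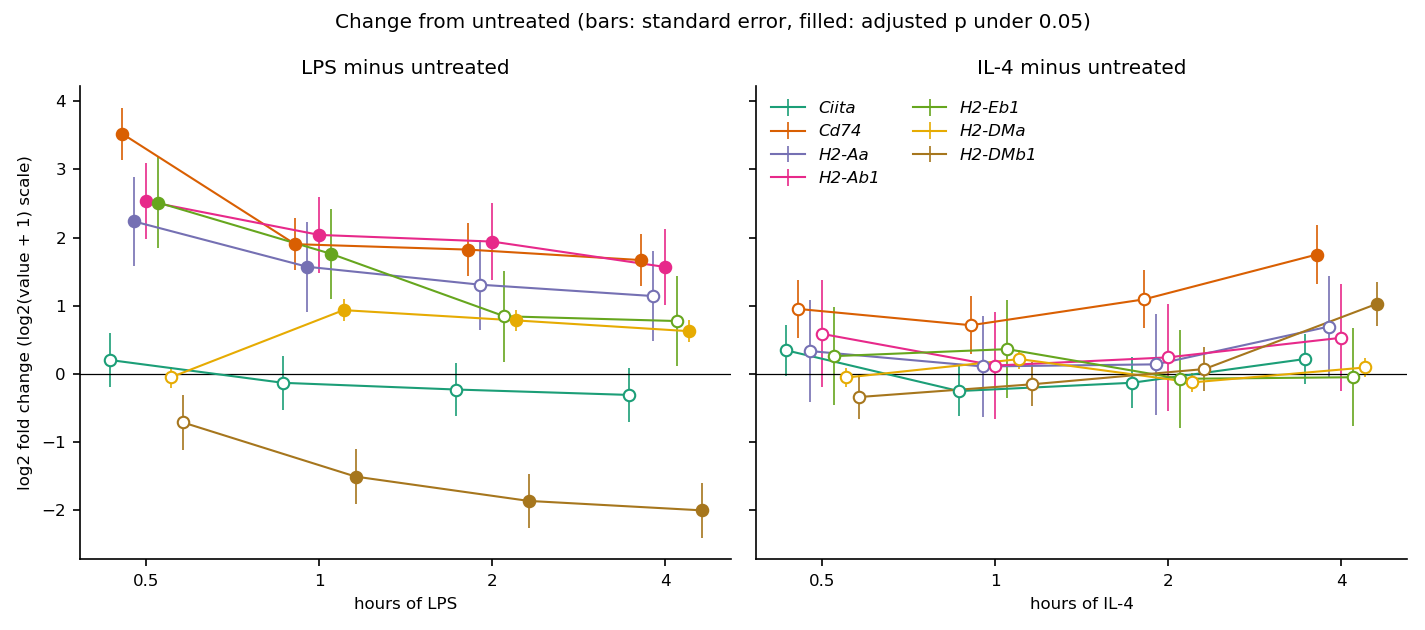
Log2 fold change against untreated on the log2(value + 1) scale over the 4 times of LPS (left) and IL-4 (right), with a colour per gene, bars for the standard error and filled points where the limma adjusted p was under 0.05. Under LPS the Cd74 points start at 3.52 and end at 1.67, H2-DMa is raised from 1 h and H2-DMb1 ends at −2.00, while under IL-4 the filled points are those of Cd74 and H2-DMb1 at 4 h.

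The direct comparison of LPS with IL-4 at matched times used a fit of all 27 samples. At 0.5 h 4 of 7 genes were higher with LPS (53.8% of all tested genes differed), by 2.57 on the log2 scale for Cd74 (SE 0.41, limma adjusted p = 1.09e-05), 2.25 for H2-Eb1 (adjusted p = 0.0123), 1.95 for H2-Ab1 (adjusted p = 0.0258) and 1.90 for H2-Aa (adjusted p = 0.0359). At 1 h 4 of 7 differed (64.5% of all tested genes), with Cd74 1.19, H2-Ab1 1.92 and H2-DMa 0.72 higher and H2-DMb1 at −1.35. At 2 h 3 of 7 differed (68.6%), with H2-Ab1 1.70 and H2-DMa 0.91 higher and H2-DMb1 at −1.94. At 4 h 2 of 7 differed (68.0%), H2-DMa 0.53 higher and H2-DMb1 at −3.03 (adjusted p = 1.25e-07).

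H2-DMb1 held the widest gap between the stimuli, 1, 4 and 5 normalised read counts with LPS against 30, 27 and 37 with IL-4 at 4 h. Cd74 showed no call by then, with 122, 86 and 91 against 125, 89 and 102 and a difference of −0.08 (SE 0.41, limma adjusted p = 0.869). The difference in H2-DMa depended on the scaling, its direction at 0.5 and 4 h and its call at 1 and 2 h, since with equal totals it was −0.38 at 0.5 h (adjusted p = 0.0338), 0.24 at 1 h (adjusted p = 0.159), 0.28 at 2 h (adjusted p = 0.0950) and −0.09 at 4 h (adjusted p = 0.605), and without replicate 2 the 4 h value was 0.42 (adjusted p = 0.128). Ciita reached −0.53 at 4 h (adjusted p = 0.269), −0.71 without replicate 1 (adjusted p = 0.0348) and −1.13 with equal totals (adjusted p = 0.0158).

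Of these direct differences, those of the classical chains were lost when replicate 2 or 3 was left out. At 0.5 h the values without replicate 2 were 2.11 for H2-Aa (limma adjusted p = 0.0771), 1.92 for H2-Ab1 (adjusted p = 0.0664) and 2.03 for H2-Eb1 (adjusted p = 0.0632), and without replicate 3 they were 1.65 (adjusted p = 0.271), 1.85 (adjusted p = 0.209) and 2.26 (adjusted p = 0.113). At 1 h, without replicate 3, Cd74 gave 0.94 (adjusted p = 0.199) and H2-Ab1 1.84 (adjusted p = 0.181). H2-Ab1 at 2 h gave 1.26 without replicate 2 (adjusted p = 0.186) and 1.72 without replicate 3 (adjusted p = 0.201). With equal totals H2-Aa gave 1.55 (adjusted p = 0.0783) and H2-Ab1 1.59 (adjusted p = 0.0622) at 0.5 h, Cd74 0.72 (adjusted p = 0.119) and H2-Ab1 1.49 (adjusted p = 0.0728) at 1 h, and H2-Ab1 1.13 (adjusted p = 0.161) at 2 h. Without replicate 1, 6 of 7 genes differed at 1 h and 5 of 7 at 2 h and at 4 h, where 67.0%, 69.9% and 70.5% of all tested genes did.

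Replicate 1 was the highest of its group for Cd74, H2-Aa, H2-Ab1 and H2-Eb1 in 9 of 9 groups, and for Ciita in 8 of 9. For H2-DMa this was so in 3 of 9 groups and for H2-DMb1 in 4. The median ratio of replicate 1 to the mean of replicates 2 and 3 was 3.91 for H2-Aa, 3.33 for H2-Ab1, 3.14 for H2-Eb1, 1.76 for Cd74 and 1.60 for Ciita, against 0.966 for H2-DMa and 1.10 for H2-DMb1. Of all tested genes 556 (4.00%) had replicate 1 highest in 9 of 9 groups.

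**Figure D3:**
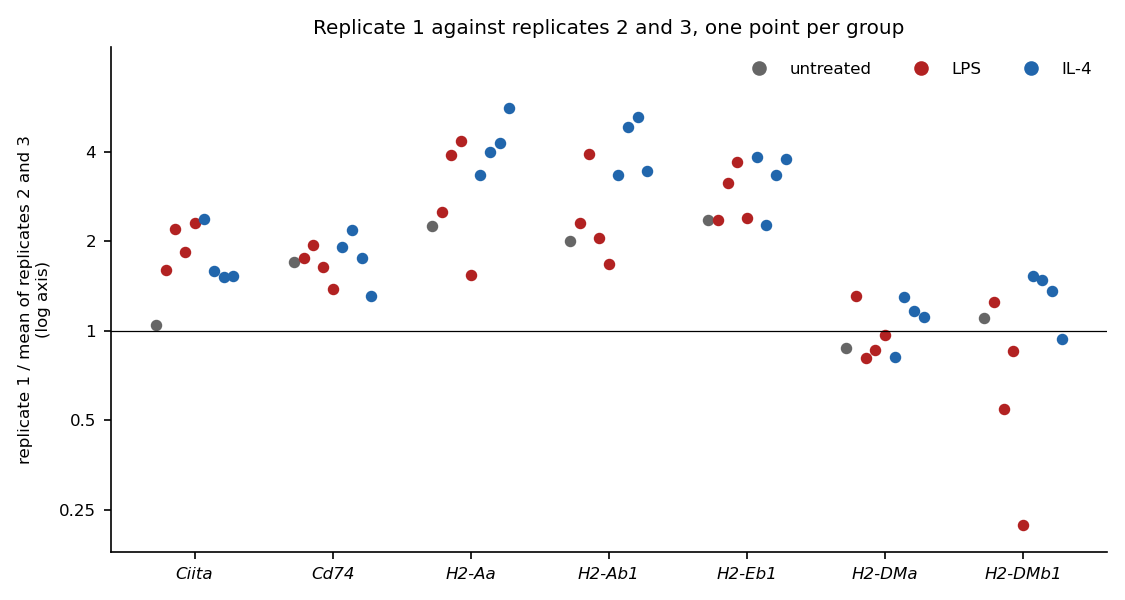
Ratio of replicate 1 to the mean of replicates 2 and 3 (log axis) for each of the 7 genes, 1 point per group, in grey for untreated, red for LPS and blue for IL-4. Every point of Cd74, H2-Aa, H2-Ab1 and H2-Eb1 is above 1, with medians of 1.76 to 3.91, and those of H2-DMa and H2-DMb1 lie on both sides.

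Markers of other cells that express class II were read beside this. The 7 B cell markers summed to 30 to 65 in the 9 replicate 1 samples and to 7 to 26 in the others, and nearly all of it was Ebf1, which was at 28 to 59 and at 3 to 20 and was also highest in replicate 1 in 9 of 9 groups. The other B cell markers were at 0 to 4 in every sample, Vpreb3 at 0, and 1 of 7 was tested. The 6 dendritic cell markers summed to 11 to 20 in untreated samples, and with LPS to 20 to 25, 55 to 101, 17 to 40 and 29 to 47 in order of time, with 13 to 31 under IL-4. The sum at 1 h was mostly Zbtb46, at 90, 49 and 43, and Xcr1 was at 0 and Cd209a at 0 to 2 throughout. The part of these cells in the class II values was not tested. Without replicate 1, 4 of the 7 genes passed at 0.5 h of LPS, 6 at 1 h, 4 at 2 h and 6 at 4 h, where 58.7%, 67.3%, 67.8% and 66.7% of all tested genes did.

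Other chains of the family were hardly transcribed. H2-Oa, H2-Ob, H2-Eb2 and H2-Ea, which encode the DM antagonist DO and further E chains, were at 0 to 5 in all 27 samples, and 1 of the 5 other chains, H2-DMb2, was tested. Of the 7 factors that bind class II promoters, 6 were tested and 5 passed at 0.5 h of LPS (53.9% of all tested genes did), with Creb1 2.02, Nfya 1.05 and Rfx5 0.55 higher and Nfyc and Rfxank lower. Rfxank, an RFX subunit, was at 26, 30 and 30 in untreated samples and at 6, 10 and 11 after 1 h of LPS, where it fell by 1.60 on the log2 scale (SE 0.29, limma adjusted p = 0.000198). Under IL-4 0 of 6 passed in limma's F test over all times, and Creb1, a binder of the cyclic AMP response element, was lower at 4 h (−0.24, adjusted p = 0.0287). With equal totals Nfya passed as lower at 1 and 2 h of LPS, with −0.38 and −0.58, where as deposited it was at 0.20 and 0.07.

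All 9 genes of a list of transcription factors known to act on Ciita were tested, and all 9 passed over the LPS course, 5 with their largest change upward and 4 downward, a course in which Ciita itself did not pass. Irf1, which acts on the interferon-responsive Ciita promoter, was at 74, 63 and 65 in untreated samples and at 1725, 1413 and 1439 after 2 h of LPS, a log2 rise of 4.48 (SE 0.28, limma adjusted p = 1.42e-09). Spi1, the myeloid factor PU.1, rose by 1.74 at 4 h (adjusted p = 1.32e-08). Prdm1, a repressor of Ciita, rose by 2.99 at 1 h (adjusted p = 7.22e-12). Usf1 fell by 2.22 at 0.5 h (adjusted p = 2.58e-06), and Irf8 fell by 2.56 at 0.5 h (adjusted p = 2.07e-06) and rose by 2.38 at 2 h (adjusted p = 2.13e-06).

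Under IL-4, 7 of these 9 passed over the course. Irf4 was at 21, 16 and 10 in untreated samples and at 361, 426 and 411 after 4 h of IL-4. It rose by 4.64 on the log2 scale (SE 0.26, limma adjusted p = 3.71e-08), and with LPS it was at 7, 2 and 1 at 4 h and fell by 2.14 (adjusted p = 0.000473). Irf1 rose by 0.74 at 4 h of IL-4 (adjusted p = 0.00692). These counts stand beside the 87.6% and 40.3% of all tested genes that passed in the LPS and IL-4 courses.

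Genes that act on class II molecules after synthesis took different courses. Of 9 genes for peptide loading and turnover, 7 passed at 0.5 h of LPS, 2 higher and 5 lower, and 7 passed at 4 h, 5 higher and 2 lower, beside 53.9% and 63.5% of all tested genes. Cd83, which keeps class II molecules at the surface, was at 112, 63 and 67 in untreated samples and at 12466, 9443 and 9327 after 0.5 h of LPS, a log2 rise of 7.03 (SE 0.22, limma adjusted p = 1.07e-12). Marchf1, a ubiquitin ligase that sends class II molecules to degradation, fell by 3.58 at 1 h (adjusted p = 2.25e-07) and rose by 1.73 at 4 h (adjusted p = 0.000331). Ctss, the protease that trims the invariant chain, fell by 1.43 at 0.5 h (adjusted p = 1.58e-06) and rose by 1.03 at 4 h (adjusted p = 2.47e-05), while Sppl2a, which cleaves its last membrane stub, rose by 2.93 at 4 h (adjusted p = 1.17e-12). Lgmn, an endosomal protease, fell by 1.95 at 1 h (adjusted p = 3.49e-07), and Ctsl, another one, went from 79, 124 and 111 in untreated samples to 15, 32 and 26 at 4 h (adjusted p = 3.08e-06). Under IL-4, Cd83 rose at all 4 times, by 2.21 at 0.5 h (adjusted p = 0.000149), and Ctsl fell by 0.95 at 4 h (adjusted p = 0.00154).

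The class I pathway, which lies in part in the same stretch of chromosome 17, had calls in both directions at 0.5 h of LPS, 5 of its 11 listed genes higher and 6 lower. Of all tested genes 19.6% passed as higher and 34.4% as lower at that time. All 11 passed as higher at 2 and 4 h of LPS (26.9% and 25.9% of all tested genes did), Psmb8 having reached the level for testing in stimulated samples alone, with a median log2 fold change of 3.38 at 2 h against 0.84 for the class II set. Nlrc5, the class I counterpart of Ciita, was at 327, 334 and 380 in untreated samples and at 8272, 8282 and 7473 after 4 h of LPS. It rose by 4.53 on the log2 scale (SE 0.11, limma adjusted p = 8.05e-14) while Ciita gave −0.31. B2m, the light chain of class I, rose by 2.47 at 4 h (adjusted p = 1.21e-09). Under IL-4 Nlrc5 fell by 1.21 at 4 h (adjusted p = 6.94e-05). With equal totals the value of Nlrc5 at 0.5 h of LPS turned from 0.40 to −0.11.

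The chromosome 17 interval from H2-DMa to H2-Eb1 holds 12 genes of the table, 10 of them tested, and the class I genes Psmb9, Tap1, Psmb8 and Tap2 sit between the DM genes and the classical chains. These genes encode immunoproteasome subunits and the peptide transporter. At 0.5 h of LPS all 4 fell, when H2-Ab1, H2-Aa and H2-Eb1 rose. Tap1 was at 42, 45 and 52 in untreated samples, at 18, 26 and 27 at 0.5 h and at 886, 988 and 983 at 4 h of LPS, and its log2 fold change went from −0.96 (SE 0.21, limma adjusted p = 0.00154) to 4.34 (adjusted p = 9.14e-11). Psmb9 was at 16, 20 and 19, then at 0, 0 and 1, and then at 155, 209 and 209, with fitted log2 values of −3.93, which depends on the pseudocount, and 3.30 (adjusted p = 3.61e-07). Tap2 gave −1.43 and 3.51 at these times and Psmb8 −1.59 and 3.03. Genes of the interval therefore had calls of opposite sign at the same time, H2-DMb1 at −2.00 and H2-Ab1 at 1.57 at 4 h of LPS. That call of H2-Ab1 was lost under several alternatives, as given above.

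**Figure D4:**
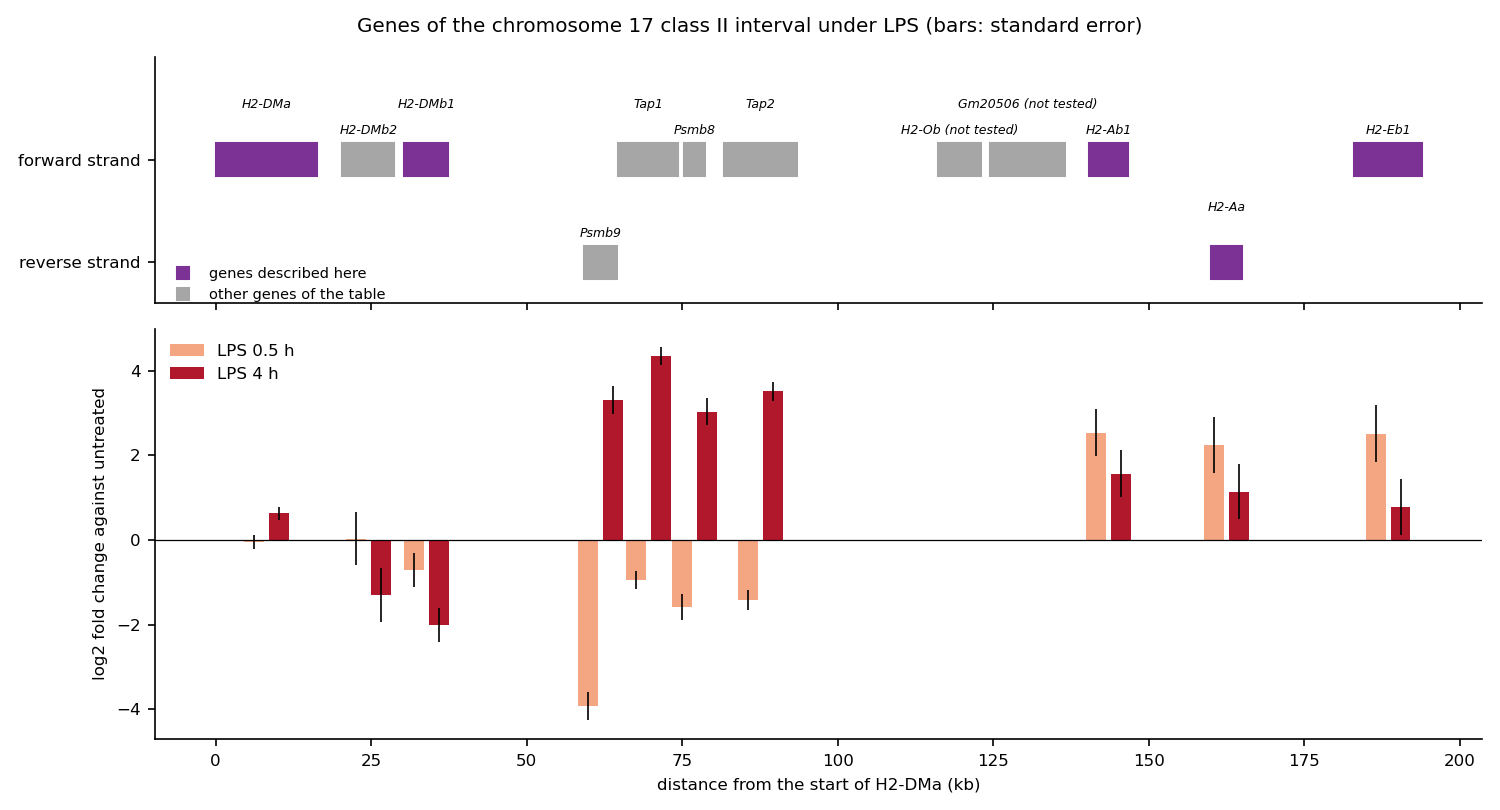
Top, the genes of the chromosome 17 interval by distance in kb from the start of H2-DMa and by strand, in purple for the genes described here. Bottom, their log2 fold change against untreated at 0.5 h (light) and 4 h (dark) of LPS with standard errors, where the 4 class I genes in the middle go from below 0 to above 3 and H2-Ab1, H2-Aa and H2-Eb1 are higher at 0.5 h than at 4 h.

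Across the 9 group means of log2(value + 1), H2-Aa and H2-Ab1 were the pair most alike. Pearson's r over these 9 points, which share the libraries and the scaling, was 0.98 for that pair, 0.93 for H2-Aa and Cd74, 0.92 for H2-Aa and H2-Eb1, 0.90 for H2-Ab1 and H2-Eb1, and −0.78 for H2-DMa and H2-DMb1. Ciita was at 0.18 with Cd74, 0.04 with H2-Aa and −0.07 with H2-Ab1. Among 8661 other tested genes with a group mean of at least 50, those most like the mean of the 6 genes other than Ciita included Prr14 (0.984), Cd83 (0.978), Opa3 (0.957) and Cnbd2 (0.956). Those most like Ciita were Fam227b (0.873), 1810062O18Rik (0.849), Usp54 (0.832), Fads3 (0.829) and Zfp869 (0.825), over a range of 0.66 on the log2 scale in Ciita itself. These are descriptions over 9 group means chosen as the highest of many.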

How the data were processed

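Chromatin-associated RNA of 27 BMDM samples was measured by the authors with a SMART-seq2 protocol using random primers and single-end sequencing. Per the submitters' processing notes and the methods, reads were aligned to mm10 with TopHat2 2.1.1, multi-mapping and blacklisted reads were removed (bedtools 2.29.2), reads were counted per gene in R over the GRCm38.p6 RefSeq annotation, and libraries were scaled on invariant genes. What the authors deposited is the scaled value per gene, rounded to a whole number, which is treated here as a score and with no count model. Sequencing depth is unknown from it, and errors come from the spread between replicates alone. Nothing says that replicates are separate cultures or animals, and p-values then measure only the spread between these samples.

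Here log2(value + 1) was tested with limma 3.58.1 (R 4.3.3, mean-variance trend, Benjamini-Hochberg over 13901 genes, threshold 0.05), within each course for changes over time and over all 27 samples for LPS against IL-4. Genes needed 10 in at least 3 samples. Fold changes are on this scale and understate changes of low genes. Scripts were tested on simulated data. The study's impulse model was not run.

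The members, gene lists, tests and alternatives were chosen with earlier results of these data known. The lists were written from general knowledge and covered other class II chains, class II promoter factors, regulators of Ciita, peptide loading and turnover, class I genes, and markers of macrophages, B cells, dendritic cells, T cells and neutrophils. Named genes were the 7 members, list genes past the threshold with the largest change, tested protein-coding genes of the chromosome 17 interval, and the 5 genes most like Ciita and most like the mean of the other members. Further genes named for their role or their place, such as Brd2, were chosen after their values were seen. A few genes that this rule or these lists name are not reported here.

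Replicate numbers were checked for pairing by correlating same-numbered deviations from the group means. All 30 pairs of the IL-4 course were above 0.1 (lowest 0.207), and the replicate block is given there beside calls it changes. In the LPS course 29 of 30 pairs were (lowest 0.0897), and over all groups 106 of 108. Alternatives were 2 pseudocounts, 2 filters, 2 scalings, no trend, other samples in the fit, the replicate block, replicates 2 and 3 averaged and leaving out each replicate.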

Additional observations from a re-analysis of the deposited data

Results flagged for a closer look

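Each result here is a difference between the effect of LPS and that of IL-4 at the same time, tested directly in limma over all 27 samples with an adjusted p under 0.05, as a log2 value of LPS minus IL-4. At 0.5 h Cd74 differed by 2.57, H2-Eb1 by 2.25, H2-Ab1 by 1.95 and H2-Aa by 1.90, all higher with LPS. At 1 h H2-Ab1 differed by 1.92, Cd74 by 1.19 and H2-DMa by 0.72, and H2-DMb1 by −1.35. At 2 h H2-Ab1 differed by 1.70, H2-DMa by 0.91 and H2-DMb1 by −1.94. At 4 h H2-DMa differed by 0.53 and H2-DMb1 by −3.03. Several of these calls depended on the processing, as given above. Those of H2-Aa, H2-Ab1 and H2-Eb1 at 0.5 h were lost without replicate 2 and also without replicate 3. With equal totals H2-DMa at 4 h turned in direction and lost its call, and 1 of 7 genes differed at 1 h and at 2 h. H2-DMb1 was the gene in which LPS and IL-4 both gave a call against untreated and in opposite directions, with −2.00 and 1.03 at 4 h. No group had over 3 samples, so no single sample was tested as lying apart.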

How the results depend on the processing

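Of 260 counts of called members under an alternative, 214 were within 1.5 times the main count and 46 were not. A mean filter of at least 50 left 2 of the 7 genes, Cd74 and H2-DMa, and gave 2 calls over the LPS course, 1 at 0.5 h, and 2 at 1, 2 and 4 h, then 1 over the IL-4 course and 1 at 4 h of IL-4, and for LPS against IL-4 1, 2, 1 and 1 at the 4 times. Under that filter 6218 of all 6539 tested genes passed over the LPS course, and 4050, 4714, 4914 and 4794 at its times. Over the IL-4 course 3973 of 6753 did. Equal totals gave 3 calls at 1 h of LPS, where 9907 of all 13901 tested genes passed. They gave 1 call for LPS against IL-4 at 1 h and at 2 h. The replicate block gave 1 call at 0.5, 1 and 2 h of IL-4, 6 and 5 for LPS against IL-4 at 2 and 4 h, 1 from 1 to 2 h of LPS and 1 from 2 to 4 h of IL-4. Of all 13901 tested genes the block called 3277 at 0.5 h of IL-4, and 9983 and 9590 at 2 and 4 h of LPS. In the LPS course, whose numbers did not meet the pairing rule, the block moved the count at 2 and 4 h from 4 to 6 through H2-Aa (adjusted p = 0.00189 and 0.0053) and H2-Eb1 (adjusted p = 0.0302 and 0.0464). With no filter there were 0 calls over the IL-4 course and 1 at 4 h of IL-4, with median-of-ratios scaling 1 over the IL-4 course, without the trend 1 over the IL-4 course, and with other samples in the fit 1 at 4 h of IL-4. Over the IL-4 course 4816 of all 30272 tested genes passed with no filter. Of 13901 tested genes, 5491 passed there with median-of-ratios scaling and 5426 without the trend. Replicates 2 and 3 averaged gave 0 over the IL-4 course, where 2503 of all 13901 tested genes passed. They gave 0 at 4 h of IL-4, and 1 and 2 for LPS against IL-4 at 0.5 and 1 h. Leaving out 1 replicate number gave 3 to 6 calls over the LPS course and, in order of its times, 2 to 4, 4 to 6, 3 to 4 and 2 to 6, then 0 to 2 over the IL-4 course with 0 to 1 at its last times of 2 h and 4 h, 1 to 4, 2 to 6, 2 to 5 and 1 to 5 for LPS against IL-4 at the 4 times, and 1 to 2 from 0.5 to 1 h of LPS. These runs called 10057 to 12504 of all 13901 tested genes over the LPS course and 2169 to 6546 over the IL-4 course. At the 4 LPS times they called 5153 to 8160, 6866 to 9360, 7249 to 9429 and 6838 to 9271. Some counts of members above, among them those for LPS against IL-4, have no count over all tested genes beside them. From those it cannot be read whether a shift follows the whole table. Over single genes, 3851 log2 values kept their direction and side of the threshold, 150 lost a call, 85 gained one and 6 turned, all 6 with equal totals: H2-DMa for LPS against IL-4 (−0.38 at 0.5 h and −0.088 at 4 h), Nfya at 1 and 2 h of LPS (−0.38 and −0.58), Nlrc5 at 0.5 h (−0.11) and Creb1 at 4 h (−0.22). Equal totals lower the LPS values against untreated or IL-4 because the LPS totals are larger than in those samples. The cause of the other shifts was not tested.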

Other observations

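The marker lists not used above held few counts. The 6 T cell markers summed to 2 to 14 in all groups but LPS 2 h, where they summed to 17, 37 and 32, most of it Lck with up to 31. Cd3e and Cd3g were at 0 in all 27 samples. The 6 neutrophil markers summed to 4 to 22 in the untreated, IL-4 and LPS 0.5 h samples and to 8 to 76 at the later LPS times, with Ly6g at 0 in all samples and Ngp at 3 to 57. Among the dendritic cell markers, Zbtb46 was at 90, 49 and 43 at 1 h of LPS against 5, 4 and 1 in untreated samples, and it reached 10, the level needed for testing, in stimulated samples alone. Clec9a at 4 h of LPS was at 18, 28 and 42 against 2, 5 and 12 in untreated samples.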
